A study of Mus musculus with 6 samples.

Results

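The genes described here encode 10 secreted proteins that macrophages and other cells release against microbes or during the acute-phase response: Saa3, Hp, Ptx3, Lcn2, Slpi, Lyz1, Lyz2, S100a8, S100a9 and Chil3. They were chosen by function from a list of names, and all 10 were found among the 25044 genes of the count table by matching Ensembl identifiers to GENCODE symbols. This list and the lists of other genes set beside it were chosen with earlier results of these data known. RNA had been sequenced, after removal of ribosomal RNA, from peritoneal macrophages of wild type C57BL/6 mice aged 8 weeks. In 3 libraries the cells had received 100 nM trametinib, which inhibits the kinases MEK1 and MEK2 upstream of ERK, for 2 h and then LPS, a bacterial agonist of TLR4, at 100 ng/ml for 12 h. In the other 3 libraries the cells had received the vehicle DMSO and then the same LPS. All cells came from a cavity primed with thioglycollate 3 days earlier, were purified only by adherence for 1 h, and had been cultured for 24 h. No culture without LPS is part of the study, so the values show the difference made by trametinib in LPS-treated cells and not induction by LPS. The design names 3 mice and does not tie a library to a mouse, so p-values here measure only how these libraries vary.

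Acute-phase proteins are secreted when cytokines of the IL-1 and IL-6 families, acting through NF-kappaB, C/EBP factors and STAT3, turn on their genes, mostly in the liver and to a lesser extent in myeloid and stromal cells. Antimicrobial secreted proteins act directly, by cutting bacterial cell walls, by withholding iron, zinc and manganese, or by opsonising microbes. In macrophages some of them, such as lysozyme, are made at all times, while others, such as lipocalin 2 and serum amyloid A3, are known targets of LPS signalling.

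With trametinib, 1 of the 10 genes was higher, 2 were lower and 7 did not pass the test. Hp, which encodes haptoglobin, a binder of free haemoglobin, rose 4.10-fold. Ptx3, which encodes the soluble pattern-recognition protein pentraxin 3, fell by 2.03 on the log2 scale, at low counts. Lcn2, which encodes lipocalin 2, a binder of bacterial siderophores, fell by 0.51 on the log2 scale. The most abundant genes of the group, Lyz2 and Saa3, did not pass.

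The test was edgeR's quasi-likelihood test with Benjamini-Hochberg adjustment over 11286 genes, with 0.05 as the threshold on the adjusted p. Levels are given as CPM, counts scaled to a common library size after TMM normalisation, and fold changes are trametinib over vehicle. Of all genes tested 34.3% passed, 15.8% higher and 18.4% lower with trametinib, so 3 of 10 is a share near that of the whole table. CPM of the groups did not overlap for 2 of the 10 genes, Hp and Ptx3, against 49.3% of all genes tested. The median log2 fold change was −0.02 over the 10 genes and −0.01 over all genes tested. All 10 passed the filter on low counts. Without trametinib replicate 3, 2 genes rose, and without trametinib replicate 2, 0 fell.

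**Figure D1:**
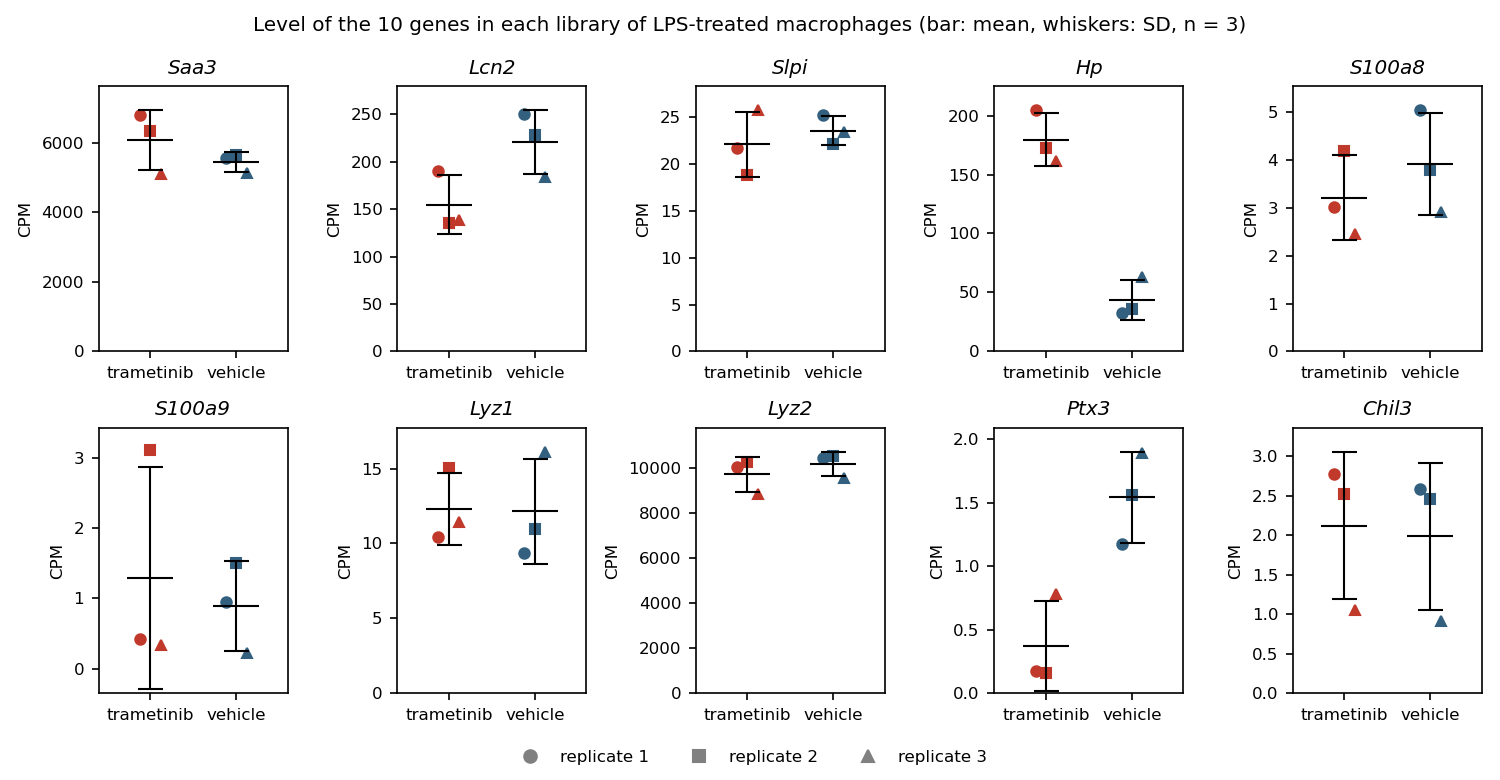
CPM of each of the 10 genes in each library, with trametinib at the left and vehicle at the right of each panel. Symbols mark the replicate number, the long bar the mean and the whiskers the SD of 3 libraries. The groups are apart for Hp (161.8 to 204.6 CPM with trametinib and 32.4 to 63.0 with vehicle) and Ptx3, and overlap for the other 8 genes.

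Libraries held 17453778 to 19648467 counts. Vehicle replicate 3 lay nearer to the trametinib libraries than the other vehicle libraries did: on the first principal component, with 68.1% of the variance, it stood at 16.6, against 39.3 and 40.7 in the other vehicle libraries and −27.3 to −36.6 with trametinib. Without it the log2 fold change was 2.39 for Hp, 0.12 for Saa3, −1.85 for Ptx3, −0.63 for Lcn2, −0.10 for Slpi, −0.11 for Lyz2, 0.28 for Lyz1, −0.45 for S100a8, 0.09 for S100a9 and −0.25 for Chil3. The calls were those made with all 6 libraries. Macrophage markers were abundant in every library, with 860 to 982 CPM of Adgre1 with trametinib and 1476 to 1865 CPM with vehicle. Of 10 macrophage markers 2 rose, 3 fell (Adgre1 among them) and 5 did not pass, and their sum was 7158 to 7935 CPM with trametinib and 7603 to 9795 CPM with vehicle. Dendritic cell markers summed to 13.4 to 24.9 CPM with trametinib and 2.52 to 8.48 CPM with vehicle, mostly as Ccr7 in the trametinib libraries, and none passed. The part of these markers in the results was not tested. Gata6, the defining factor of large resident peritoneal macrophages, had 0 counts in the trametinib libraries and 0 or 1 in the vehicle libraries. Of 8 markers of those macrophages 1 rose (Garnl3, log2 fold change 0.83, adjusted p 0.0390), 4 did not pass and 3 were not tested. They summed to 138 to 159 CPM with trametinib and 121 to 157 CPM with vehicle, of which Cd9 made up 132 to 153 CPM and 117 to 150 CPM. Their part in the results was not tested either. Ly6g, which marks neutrophils, had 0 or 1 count with trametinib and 0 with vehicle.

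The group spanned a wide range of levels. Per kilobase of annotated exon (TPM, counts scaled by exon length and then to an equal sum in each library), Lyz2 ranked the highest of all genes in each of the 6 libraries, with 24554 ± 423 TPM with trametinib and 27414 ± 258 TPM with vehicle (SD, n = 3 each). TPM carry no TMM factor, so their gaps between the groups can differ from those in CPM and were not tested. In the edgeR test, which uses TMM, Lyz2 did not pass (adjusted p 0.559). Saa3 ranked between 11 and 13, with 7740 ± 743 and 7408 ± 62.3 TPM. Together these 2 genes held 97.5% to 97.9% of the group's counts in the trametinib libraries and 98.0% to 98.1% in the vehicle libraries. The order below them differed between the groups. With trametinib Hp (372 ± 42.3 TPM) stood above Lcn2 (197 ± 38.8 TPM), and with vehicle it stood below it (97.9 ± 42.2 and 298 ± 35.0 TPM). This held in every library: the ratio of Lcn2 to Hp per kilobase was 0.482 to 0.570 with trametinib and 1.79 to 4.72 with vehicle. Slpi followed with 63.1 ± 14.7 TPM with trametinib and 71.0 ± 5.51 with vehicle, and Lyz1 with 32.3 ± 4.98 and 34.4 ± 11.6. S100a8 had 15.3 ± 3.17 and 19.9 ± 4.89 TPM. S100a9 (7.84 ± 9.33 and 5.94 ± 4.21 TPM) and Chil3 (4.25 ± 1.70 and 4.26 ± 1.88 TPM) were neighbours that did not differ beyond their spread. Ptx3 came last, with 0.485 ± 0.489 TPM with trametinib and 2.05 ± 0.554 with vehicle.

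Haptoglobin captures haemoglobin freed from red cells and so keeps its iron from bacteria. Hp (ENSMUSG00000031722, mm10 chr8:109575128-109579172, minus strand) had 204.6, 172.5 and 161.8 CPM in trametinib replicates 1, 2 and 3, and 32.4, 35.9 and 63.0 CPM in vehicle replicates 1, 2 and 3. Every trametinib library was above every vehicle library, and vehicle replicate 3 was the highest of its group. Hp rose by 2.04 on the log2 scale (SE 0.28, 95% interval 1.35 to 2.72, adjusted p 0.00352). Of the 11286 genes tested, 59 had a higher log2 fold change. Within a replicate number, Hp was 6.31-fold, 4.80-fold and 2.57-fold higher with trametinib in replicates 1, 2 and 3. The call held under all 13 alternative settings, with an adjusted p between 1.48e-08 and 0.0206, and without vehicle replicate 3 the log2 fold change was 2.39.

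Serum amyloid A3 is an apolipoprotein of the acute-phase response that, unlike its liver relatives, is made chiefly by macrophages and other cells outside the liver. Saa3 (ENSMUSG00000040026, chr7:46711998-46715700, minus strand) stood at 6788, 6329 and 5118 CPM in the trametinib libraries and 5560, 5647 and 5124 CPM in the vehicle libraries. Trametinib replicates 1 and 2 were the highest, and trametinib replicate 3 lay below all 3 vehicle libraries. The log2 fold change was 0.16 (SE 0.11, 95% interval −0.08 to 0.40, adjusted p 0.276). Without trametinib replicate 3 it was 0.27 and passed (adjusted p 0.0247), while the alternatives as a whole gave 0.0247 to 0.685.

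The start of the Saa3 gene is shown for its 4 matches to a C/EBP motif, in capitals. The sequence covers 270 bases, 250 before and 20 from the annotated start, on the minus strand at chr7:46715657-46715926 (RefSeq, GRCm38.p6, the build of mm10).
Saa3: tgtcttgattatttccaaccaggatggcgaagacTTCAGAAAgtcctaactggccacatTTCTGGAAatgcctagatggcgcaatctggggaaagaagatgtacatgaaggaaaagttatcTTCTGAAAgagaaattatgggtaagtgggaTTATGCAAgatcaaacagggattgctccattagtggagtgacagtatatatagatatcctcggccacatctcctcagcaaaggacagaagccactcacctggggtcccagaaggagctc

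Pentraxin 3 is a long pentraxin that opsonises microbes and binds complement C1q. Ptx3 (ENSMUSG00000027832, chr3:66219910-66225805, plus strand) had 3, 3 and 14 counts in trametinib replicates 1, 2 and 3, and 21, 28 and 35 counts in vehicle replicates 1, 2 and 3. All trametinib libraries were below all vehicle libraries, and trametinib replicate 3 was the highest of its group. Mean levels were 0.373 ± 0.352 CPM with trametinib and 1.54 ± 0.357 CPM with vehicle (SD, n = 3 each). Its log2 fold change was −2.03 (SE 0.51, 95% interval −3.17 to −0.88, adjusted p 0.0147). The 20 counts with trametinib against 84 with vehicle gave a ratio of 0.242 after scaling by library size, with an exact 95% interval of 0.140 to 0.397 that covers counting error only. Without trametinib replicate 3 the log2 fold change was −3.14. It no longer passed when trametinib replicate 1 (adjusted p 0.0646) or trametinib replicate 2 (0.0589) was left out, and the 13 alternatives gave 0.00242 to 0.0646. Ptx3 lies within Veph1, a gene on the opposite strand that had 0 to 2 counts per library.

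Lipocalin 2 binds enterobactin and related siderophores, with which bacteria gather iron. Lcn2 (ENSMUSG00000026822, chr2:32384633-32388252, minus strand) had 190.5, 135.9 and 138.2 CPM in trametinib replicates 1, 2 and 3, against 250.02, 228.2 and 183.8 CPM in vehicle replicates 1, 2 and 3. In CPM the groups overlapped, since trametinib replicate 1 was above vehicle replicate 3. In TPM, which carry no TMM factor, they did not, at 162 to 238 with trametinib and 262 to 331 with vehicle. Within a replicate number the level was lower with trametinib in 3 of 3, at 0.762, 0.595 and 0.752 of the vehicle value. Lcn2 thus had a log2 fold change of −0.51 (SE 0.16, 95% interval −0.89 to −0.13, adjusted p 0.0443). The call was lost when low counts were not filtered (adjusted p 0.0762) and without trametinib replicate 2 (0.141), trametinib replicate 3 (0.127), vehicle replicate 1 (0.131) or vehicle replicate 2 (0.122). Over all alternatives the adjusted p ran from 0.00310, with the replicate number as a block, to 0.141.

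The starts of both genes that fell are shown in the same way, Lcn2 on the minus strand at chr2:32387720-32387989 and Ptx3 on the plus strand at chr3:66219637-66219906. Capitals mark a C/EBP motif in each and, in Ptx3, a kappaB motif at the start itself.
Lcn2: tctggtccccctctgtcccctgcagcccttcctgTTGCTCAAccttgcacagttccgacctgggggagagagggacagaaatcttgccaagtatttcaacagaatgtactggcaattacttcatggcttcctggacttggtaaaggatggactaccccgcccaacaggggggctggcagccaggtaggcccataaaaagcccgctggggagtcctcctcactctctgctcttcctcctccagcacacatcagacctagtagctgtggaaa
Ptx3: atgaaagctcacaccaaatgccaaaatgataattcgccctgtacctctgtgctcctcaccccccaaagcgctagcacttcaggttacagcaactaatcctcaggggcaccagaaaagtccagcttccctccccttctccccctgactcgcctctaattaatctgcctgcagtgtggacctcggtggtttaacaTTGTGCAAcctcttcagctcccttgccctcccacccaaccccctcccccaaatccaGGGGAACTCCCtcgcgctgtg

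Promoter entries were found for 9 of the 10 genes, all but Hp, and were searched on both strands from 250 bases before to 50 after the start. The starts are those of RefSeq and can lie inside the GENCODE span of the gene. The Slpi window, on the minus strand, was chr2:164356458-164356757, while the GENCODE span runs to 164389095. The Lcn2 window also lay inside the span, and further starts were not searched. The C/EBP motif TTNNGNAA had a match in 9 of 9, where 40.7% of all 32851 promoters of this length had one. The kappaB consensus matched in 1 of 9, Ptx3, against 8.46% of all promoters, where a pair of matches overlapped at the start. AP-1 (TGANTCA) and ETS (CGGAAG) motifs had no match in these windows, against 7.81% and 16.9% of all promoters. The C/EBP matches lay at bases −99 to −92 and 3 further places in Saa3, −216 to −209 in Lcn2 and −57 to −50 in Ptx3, and no match of one motif overlapped one of another. These are matches of letters and not measured binding sites.

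The secretory leukocyte protease inhibitor blocks neutrophil elastase and cathepsin G and is itself bactericidal. Slpi (ENSMUSG00000017002, chr2:164354070-164389095, minus strand) had 21.7, 18.9 and 25.8 CPM with trametinib and 25.2, 22.1 and 23.4 CPM with vehicle, with the groups overlapping. The log2 fold change was −0.09 (95% interval −0.36 to 0.18, adjusted p 0.575), and its sign turned without trametinib replicate 2 (0.02).

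Lysozyme cuts the peptidoglycan of bacterial cell walls. Mice carry a pair of genes side by side on chromosome 10, Lyz2, the lysozyme of myeloid cells, and Lyz1, the lysozyme of Paneth cells. Their coding sequences, of 447 bases each, are 95.1% identical, with 22 differences and a longest identical run of 118 bases, and 16.1% of the 50-base stretches in the Lyz1 transcript also occur in Lyz2. How reads that map to several places were counted is not given in the sources used here, so the counts of both genes are uncertain to that extent. The opening 120 coding bases of each are shown (GENCODE M21 transcripts), with capitals at the 11 positions where they differ.
Lyz1: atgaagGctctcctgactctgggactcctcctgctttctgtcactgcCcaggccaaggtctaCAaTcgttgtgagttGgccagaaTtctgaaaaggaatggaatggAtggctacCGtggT
Lyz2: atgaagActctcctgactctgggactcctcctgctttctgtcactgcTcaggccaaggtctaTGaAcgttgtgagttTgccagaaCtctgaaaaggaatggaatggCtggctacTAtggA

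Lyz2 (ENSMUSG00000069516, chr10:117277331-117282321, minus strand) stood at 10035, 10284 and 8835 CPM in the trametinib libraries and 10438, 10524 and 9559 CPM in the vehicle libraries. Replicate 3 was the lowest in each group, and within a replicate number the trametinib library was the lower in 3 of 3, at 0.961, 0.977 and 0.924 of vehicle. For Lyz2 this gave a log2 fold change of −0.07 (SE 0.08, 95% interval −0.25 to 0.12, adjusted p 0.559). Lyz1 (ENSMUSG00000069515, chr10:117287797-117292868, minus strand) had 10.5, 15.0 and 11.4 CPM with trametinib and 9.36, 10.99 and 16.1 CPM with vehicle. Its highest vehicle library was replicate 3 and its highest trametinib library replicate 2. The log2 fold change of Lyz1 was 0.02 (95% interval −0.50 to 0.54, adjusted p 0.959), and its sign turned without trametinib replicate 2 (−0.15), vehicle replicate 1 (−0.14) or vehicle replicate 2 (−0.05). Lyz2 had 684 to 959 counts for each count of Lyz1 in the trametinib libraries and 594 to 1115 in the vehicle libraries. The ranges of the groups overlapped, and how many Lyz1 counts came from Lyz2 reads was not tested.

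S100a8 and S100a9 encode the subunits of calprotectin, which withholds zinc and manganese from microbes and is stored in bulk in neutrophils. S100a8 (ENSMUSG00000056054, chr3:90668978-90670035, plus strand) had 51, 78 and 44 counts with trametinib and 90, 68 and 54 counts with vehicle, which overlap. Its log2 fold change was −0.28 (SE 0.26, 95% interval −0.86 to 0.31, adjusted p 0.437), and it ran from −0.51 without trametinib replicate 2 to −0.06 without vehicle replicate 1. S100a9 (ENSMUSG00000056071, chr3:90692632-90695721, minus strand) had 7, 58 and 6 counts in trametinib replicates 1, 2 and 3, and 17, 27 and 4 counts in vehicle replicates 1, 2 and 3. Replicate 2 was the highest library in both groups. The log2 fold change of S100a9 was 0.56 with a 95% interval of −1.92 to 3.03 (adjusted p 0.706), and no difference was detectable given the spread between libraries. Without trametinib replicate 2 its sign turned, to −1.23 (adjusted p 0.289).

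Ngp, a neutrophil granule gene, was highest in the same libraries as S100a9, with 2, 27 and 0 counts in the trametinib libraries and 2, 8 and 2 counts in the vehicle libraries. Mpo and Elane also peaked in trametinib replicate 2, at 7 and 3 counts. Other neutrophil markers had other profiles. Mmp8 had 168, 166 and 104 counts with trametinib and 250, 258 and 99 with vehicle. Camp had 15, 22 and 25 counts with trametinib and 21, 22 and 22 with vehicle. Of the 12 neutrophil markers 2 rose, Csf3r and Cxcr1, 2 did not pass, Mmp8 and Camp, and 8 were not tested. In every library 7 of the 12 stayed below 1 CPM, among them the defining marker Ly6g, and Retnlg and Stfa2l1 had 0 counts throughout. Their summed level was 496 to 601 CPM with trametinib and 377 to 426 CPM with vehicle, of which Csf3r made up 487 to 589 CPM and 360 to 410 CPM. Their part in the S100a9 counts was not tested. In bulk RNA, fewer cells of a type and less RNA per cell cannot be told apart.

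**Figure D2:**
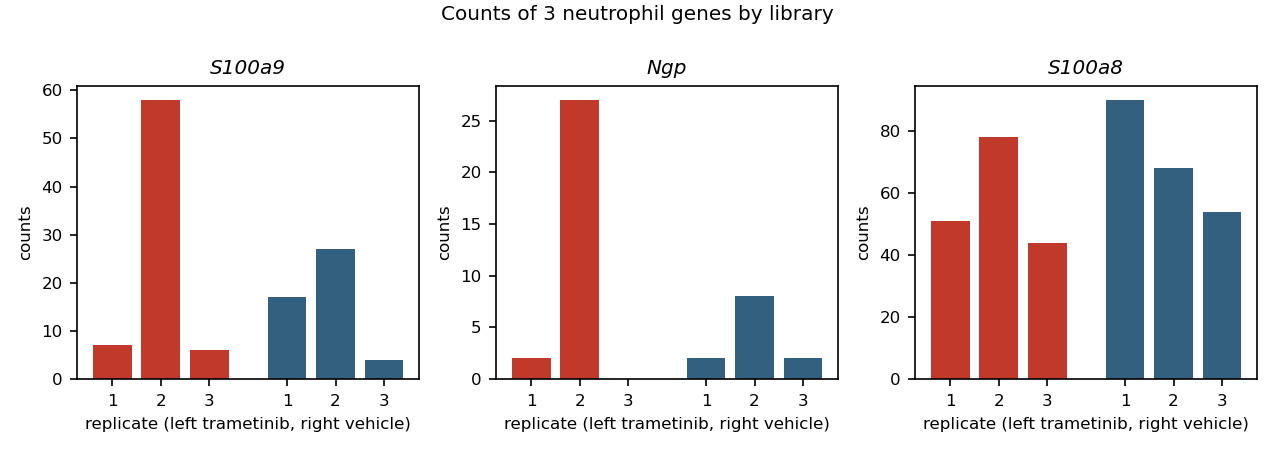
Counts of S100a9, Ngp and S100a8 in each library, with trametinib replicates 1 to 3 at the left (red) and vehicle replicates 1 to 3 at the right (blue) of each panel. S100a9 and Ngp peak in trametinib replicate 2, at 58 and 27 counts, while S100a8 peaks in vehicle replicate 1, at 90 counts.

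Chil3 encodes Ym1, a chitinase-like protein without chitinase activity that marks alternatively activated mouse macrophages. Chil3 (ENSMUSG00000040809, chr3:106147554-106167564, minus strand) had 47, 47 and 19 counts with trametinib and 46, 44 and 17 counts with vehicle. Replicate 3 was the lowest in both groups, and the libraries of each replicate number lay close together, with ratios of 1.08, 1.03 and 1.15. Its log2 fold change was 0.10 (95% interval −0.98 to 1.17, adjusted p 0.893), and it was −0.14, −0.05 and −0.25 without trametinib replicate 1, trametinib replicate 2 and vehicle replicate 3. Of the 50-base stretches of Chil3 26.9% also occur in another gene, the highest share among the 10, so its counts are uncertain in the same way. Its paralog Chil4 holds 16.9% of them and had 0 counts with trametinib and 0 or 1 with vehicle. Retnla, which encodes another marker of that macrophage state, had 0 counts with trametinib and averaged 0.0186 CPM with vehicle.

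Markers of fibroblasts and mesothelium, cells that also make Saa3, Lcn2, Slpi and Ptx3, were read beside these genes. Their sum was 7.39 to 14.1 CPM with trametinib and 8.41 to 19.6 CPM with vehicle, and Pdgfrb alone made up 6.68 to 11.1 CPM and 6.95 to 18.8 CPM. Of the 13 markers 11 were below 1 CPM in every library, and Msln and Upk1b had 0 counts in all 6. The collagen genes Col1a1 and Col1a2 were higher in trametinib replicates 2 and 3 than in any other library. In replicates 1, 2 and 3, Col1a2 had 0, 17 and 19 counts with trametinib and 0, 1 and 3 with vehicle. Col1a1 had 0, 12 and 17 and 0, 0 and 4 counts. Pdgfra shared this pattern at 0 to 3 counts, but Dcn and Upk3b did not. Dcn had 2, 3 and 10 counts with trametinib and 8, 7 and 5 with vehicle. Upk3b had 5, 6 and 4 and 16, 14 and 2 counts. The collagen gene Col3a1 had 0 or 1 count per library. Pdgfrb, the only marker of the 13 that could be tested, did not pass (adjusted p 0.620). Their part in the values of the 4 genes was not tested.

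Other acute-phase genes moved mostly as Hp did. Of 31 listed genes 12 were tested, and 8 rose, 1 fell and 3 did not pass, where 15.8% of all genes tested rose and 18.4% fell. Their median log2 fold change was 0.91, against −0.01 over all genes tested. This list was chosen with earlier results of these data known, so its distance from the background is only a description. The other 19, among them the liver genes Alb, Crp and Fga, were too low to be tested. Hamp, which encodes the iron hormone hepcidin, had 2.02 ± 0.324 CPM with trametinib and 0.498 ± 0.114 CPM with vehicle (log2 fold change 2.01, adjusted p 0.00120). Cp, which encodes the copper-carrying ferroxidase ceruloplasmin, had 293 ± 9.14 CPM with trametinib and 184 ± 23.7 CPM with vehicle (adjusted p 0.00151). Saa1, a paralog of Saa3, rose to 3.90 ± 0.648 CPM, against 1.80 ± 0.255 CPM with vehicle (log2 fold change 1.11, adjusted p 0.00374). Saa2 was not tested, with 7, 7 and 5 counts with trametinib and 2, 1 and 1 with vehicle. The member that fell was Serpina3f, a serine protease inhibitor, with 0.486 ± 0.230 and 2.65 ± 0.937 CPM (adjusted p 0.00289). Its relative Serpina3g, with 4.76 ± 1.98 and 11.1 ± 5.70 CPM, did not pass (adjusted p 0.127), but did under the replicate block (0.0107) and when vehicle replicate 3 was left out (0.00659), where the alternatives spanned 0.00659 to 0.310.

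Serpina3g, Orm1 and C3 were named after their values were seen. Orm1, which encodes the acute-phase glycoprotein orosomucoid, had 29.4 ± 4.66 CPM with trametinib and 6.73 ± 3.61 CPM with vehicle (log2 fold change 2.12, adjusted p 0.00840). C3, the central complement component, had 3594 ± 289 and 1687 ± 505 CPM (log2 fold change 1.09, adjusted p 0.00668). For both, as for Hp, the ratio within replicate 3 was the smallest of the 3, at 2.28 for Orm1 and 1.68 for C3. This was not particular to acute-phase genes that rose. Ptx3, Cebpd and Nfkbiz, which fell, also changed least within replicate 3, at 0.412, 0.242 and 0.477 of vehicle. Lcn2 changed least within replicate 1, at 0.762.

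**Figure D3:**
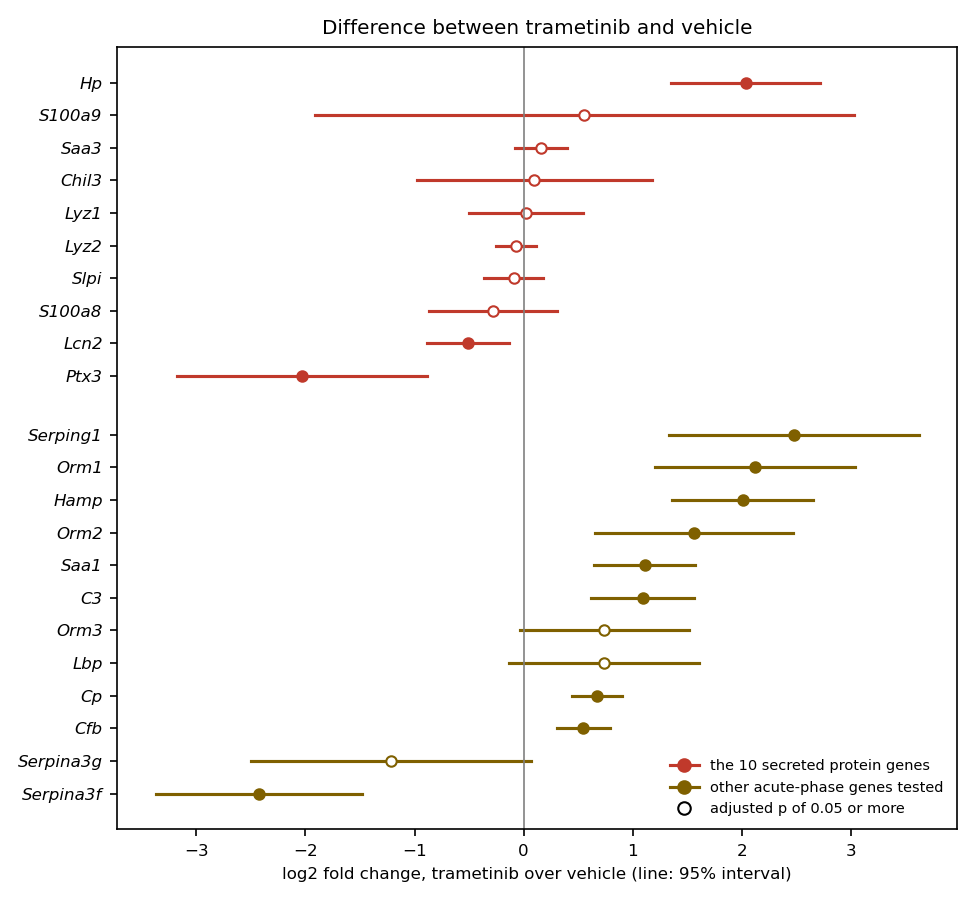
Log2 fold change of trametinib over vehicle for the 10 genes (red) and the 12 other acute-phase genes tested (brown), with 95% intervals. Filled points passed at an adjusted p under 0.05: Hp, Lcn2 and Ptx3 among the 10, and 9 of the 12 others, of which 8 lie above 0.

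Among other antimicrobial effector genes, 39 were listed and 17 tested, and 2 rose, 3 fell and 12 did not pass (median log2 fold change 0.08, against −0.01 over all genes tested). Over all genes tested 15.8% rose and 18.4% fell, so these counts are not above that background. Acod1, which makes the antibacterial metabolite itaconate, had 2378 ± 66.7 CPM with trametinib and 4611 ± 476 CPM with vehicle (adjusted p 0.000268). The phagosomal metal transporter gene Slc11a1 had 305 ± 24.6 and 591 ± 116 CPM (adjusted p 0.00192). Pla2g7, a secreted phospholipase, fell by 0.30 (adjusted p 0.0101), a call lost without trametinib replicate 1 (0.0593) or vehicle replicate 2 (0.0514), in a range of 0.000605 to 0.0593. Chil1, a chitinase-like relative of Chil3, rose to 1.87 ± 0.217 CPM, against 0.437 ± 0.386 CPM with vehicle (adjusted p 0.0103). The other riser, named after its value was seen, was Mfge8, a bridge to apoptotic cells (log2 fold change 0.32, adjusted p 0.0157), which was lost without trametinib replicate 1 (0.0735) or vehicle replicate 2 (0.0729), in a range of 0.00167 to 0.0735. Without vehicle replicate 3, 5 members of the list fell, and without vehicle replicate 2, 1 rose. The granule genes Camp, Ltf, Mpo, Elane and Ctsg averaged below 1.2 CPM in each group.

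Of 28 listed receptors and partners of the 10 proteins 22 were tested, and 2 rose, 8 fell and 12 did not pass, where 15.8% of all genes tested rose and 18.4% fell. Their median log2 fold change was −0.07, against −0.01 over all genes tested. This list, too, was chosen with earlier results known. Tlr4, the LPS receptor, to which calprotectin also binds, fell by 0.78 on the log2 scale, to 33.0 ± 3.84 CPM against 56.8 ± 4.37 CPM with vehicle (adjusted p 0.000755). The formyl peptide receptor gene Fpr2, whose product also binds serum amyloid A, had 259 ± 1.85 CPM with trametinib and 383 ± 29.6 CPM with vehicle (adjusted p 0.00128). Its relative Fpr1 had 29.4 ± 10.3 and 230 ± 55.8 CPM (log2 fold change −2.97, adjusted p 0.00207), and Plscr1, a phospholipid scramblase reported to bind SLPI, fell by 0.48 (adjusted p 0.00405). The others that fell, named after their values were seen, were Cd33 (−4.99, adjusted p 0.00490), Fcgr2b (−0.43, adjusted p 0.00524), Scarb1 (−0.46, adjusted p 0.00663) and Fcgr3. For Fcgr3 the log2 fold change was −1.72 (adjusted p 0.0330, passed in 7 of 13 alternatives). The genes that rose were Cd14, the LPS coreceptor (0.25, adjusted p 0.0214), and Grn, the gene of progranulin, which SLPI protects from elastase (0.25, adjusted p 0.0475). Neither passed without trametinib replicate 1 (adjusted p 0.100 for Cd14 and 0.179 for Grn), trametinib replicate 2 (0.0601 and 0.174), vehicle replicate 1 (0.0785 and 0.0770) or vehicle replicate 2 (0.0693 and 0.118), and Grn did not without vehicle replicate 3 (0.0710), with limma-voom (0.0639) or when low counts were not filtered (0.0555) either. The haptoglobin receptor gene Cd163, the lipocalin receptor genes Slc22a17 and Lrp2, and Tnfaip6, a partner of pentraxin 3, averaged under 0.5 CPM in each group and were not tested.

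Factors and cytokines known to induce the 10 genes also moved in both directions. Of 34 listed genes 31 were tested, and 8 rose, 11 fell and 12 did not pass (median log2 fold change −0.02), beside the same 15.8% and 18.4% of all genes tested. This list, too, was chosen with earlier results known. Tnf, an activating cytokine of NF-kappaB, had 417 ± 17.4 CPM with trametinib and 1054 ± 144 CPM with vehicle (log2 fold change −1.34, adjusted p 0.000178). Nfkbiz encodes IkappaB-zeta, a nuclear cofactor that Lcn2 is known to need for its induction. It had 49.7 ± 8.09 CPM with trametinib and 138.5 ± 15.5 CPM with vehicle (log2 fold change −1.48, adjusted p 0.000360). Cebpd encodes a C/EBP factor of the acute-phase response and had 3.73 ± 0.861 and 26.9 ± 6.75 CPM (log2 fold change −2.85, adjusted p 0.000412). Hif1a, the gene of the oxygen-regulated factor HIF-1alpha, rose by 0.88 (adjusted p 0.000535).

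Further genes of this list were named after their values were seen. Cebpa (log2 fold change 0.60, adjusted p 0.000673) and Stat3 (0.58, adjusted p 0.00166) rose, as did the receptor genes Il6st (0.71, adjusted p 0.000574) and Il6ra (0.51, adjusted p 0.00611), whose products carry IL-6 signals to STAT3. Il6 itself had a log2 fold change of −0.39 (95% interval −1.84 to 1.07, adjusted p 0.641). It passed with the replicate block (0.00665), its sign turned without vehicle replicate 3 (0.16), and the alternatives spanned 0.00665 to 0.905. For Cebpb, the C/EBP factor induced by LPS, it was −0.08 (adjusted p 0.708), and 0.02 and 0.01 without trametinib replicate 2 and vehicle replicate 1. Cebpd, Nfkbiz and Lcn2 were thus called lower with trametinib, and Cebpa, Stat3 and Hp higher. In CPM the groups overlapped for Lcn2, which passed in 8 of 13 alternatives, and Saa3 and Slpi did not pass. The part of one of these genes in another was not tested.

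**Figure D4:**
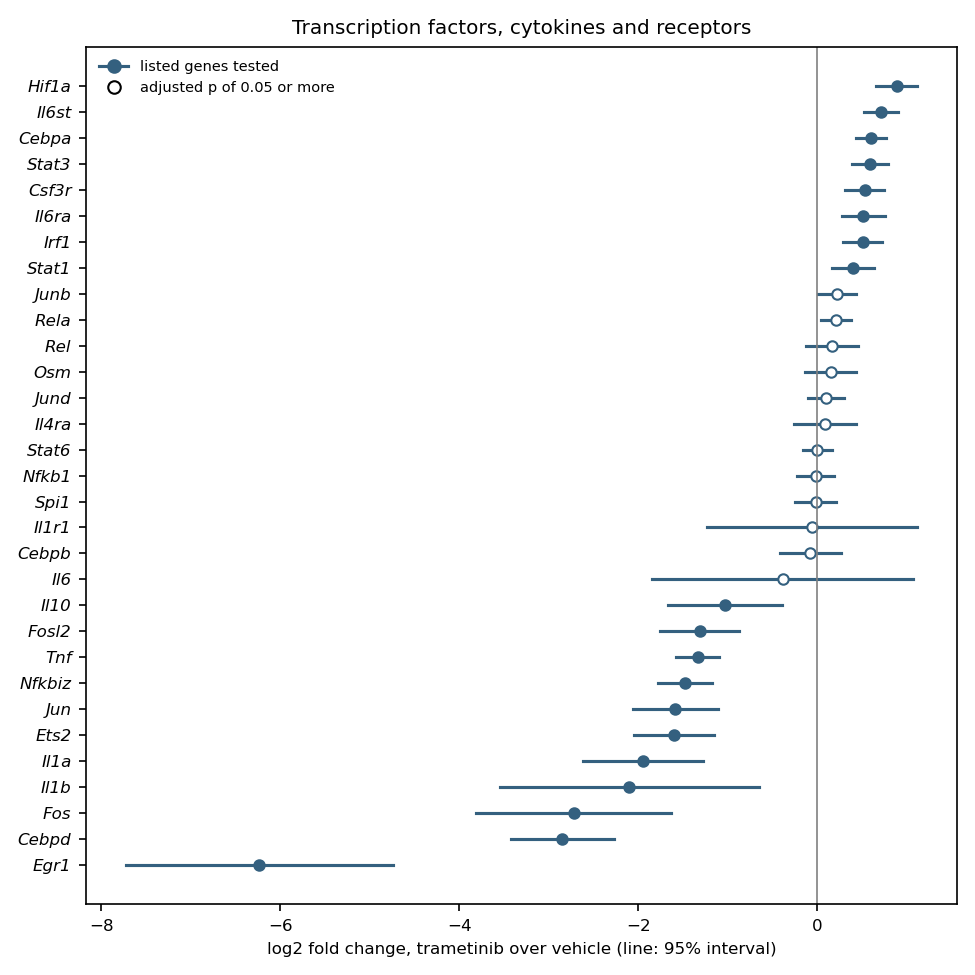
Log2 fold change of trametinib over vehicle for the 31 tested transcription factors, cytokines and receptors known to induce the 10 genes, with 95% intervals. Filled points passed at an adjusted p under 0.05, 8 above 0 and 11 below 0, with Egr1 and Cebpd the lowest.

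Of the 10 genes 6 averaged at least 5 CPM, and their profiles over the 6 libraries were compared with those of 8769 genes at that level by the root mean square distance between centred log2 values. Genes with predicted-gene or clone names were passed over when the nearest were named, so such genes may lie closer. Hp lay nearest to Gpr35, a G protein-coupled receptor gene, at a distance of 0.08, and to Rab38, a small GTPase gene, at 0.13. Gpr35 had 21.6, 17.2 and 14.8 CPM in the trametinib libraries and 2.92, 3.35 and 5.45 CPM in the vehicle libraries. For Lcn2 the nearest were Trim46 (0.04) and Asb1 (0.08), for Saa3 March1 and Psmd9 (0.03 each), and for Lyz2 Bax (0.01) and Ccdc59 (0.02). Slpi lay nearest to Ap4e1 and Fem1a (0.04 each) and Lyz1 to Cep85 (0.10) and Gem (0.11). Among the 6, Lyz2 was the nearest to Saa3, Lcn2, Slpi and Lyz1, at 0.13, 0.28, 0.21 and 0.30, and the nearest to Hp was Saa3, at 1.02. Each profile rests on 6 libraries in 2 groups, and the distances are descriptions.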

How the data were processed

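The deposited values are raw counts per gene for 6 libraries, which the authors had not normalized. The submitters' processing notes name the build mm10, the aligner HISAT2 2.1.0, the read counter featureCounts 1.6.4, R 3.6.0, and DESeq2 1.24.0. Annotation, strand setting and the rule for multiply mapped reads: not given in the sources used here. Of 25354 entries 310 repeated an identifier with identical values and were dropped. Symbols, positions and exon lengths came from GENCODE M21 (25033 of 25044 genes found).

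Genes were kept by filterByExpr, scaled by TMM and tested with edgeR 4.0.16 (robust quasi-likelihood fit, group as the only term), with Benjamini-Hochberg adjustment over 11286 genes. The SE was taken from the F statistic (log2 fold change over root F), and 95% intervals use the t distribution with the fit's degrees of freedom. The procedure was tested on simulated data, whose outcome is not reported here. The simulated libraries were independent, without the correlation of same-numbered libraries described below. TPM used all annotated exons of a gene.

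Both groups carry replicate numbers 1 to 3. Across genes, the deviations of same-numbered libraries from their group means correlated at 0.342, 0.387 and 0.277, and those of differently numbered ones at −0.0716 to −0.230, so the numbers may pair the samples. This comes from the data, and the labels do not state it. The main fit does not use such a pairing, and the fit with the number as a block was an alternative. With the block 2312 genes were called higher and 2525 lower, against 1787 and 2082 in the main fit. The 13 alternatives were this block, DESeq2 size factors, TMM without the most abundant and mitochondrial genes, all genes without a filter, at least 1 CPM in 3 libraries, DESeq2 1.42.0, limma-voom (limma 3.58.1), and each of the 6 libraries left out.

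The members and the gene lists were chosen with earlier results of these data known. From each list, the up to 4 genes with the smallest p were named, with partners and paralogs of the members. For members averaging at least 5 CPM the 2 genes of most similar profile were named, predicted-gene and clone names left out. The software was Python 3.11.15 (pandas 2.3.3, NumPy 2.4.6, matplotlib 3.10.9) and R 4.3.3.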

Additional observations from a re-analysis of the deposited data

How the results depend on the processing

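Hp kept its direction and its call under all 13 alternatives, and the replicate block changed no call among the 10 genes. Without a filter on low counts 1 of the 10 genes fell in place of 2, with Lcn2 at −0.52 (adjusted p 0.0762), and 1 receptor or partner rose in place of 2, as it did with limma-voom. With the replicate block 2 other acute-phase genes fell in place of 1. With 1 CPM in 3 libraries S100a9 was not tested. Leaving out 1 library at a time gave 1 to 2 members higher and 0 to 2 lower, 1 to 2 acute-phase genes lower, 1 to 3 antimicrobial genes higher and 2 to 5 lower, and 0 to 2 receptors or partners higher. Over all genes it gave 1068 to 2210 higher and 1360 to 2453 lower, against 1787 and 2082 with all libraries, and the counts higher were lowest without trametinib replicate 1 (1068), vehicle replicate 1 (1131) and vehicle replicate 2 (1165). The log2 fold change then ran from 0.074 to 0.27 for Saa3, −0.69 to −0.41 for Lcn2, −3.14 to −1.65 for Ptx3, −0.22 to 0.016 for Slpi, −1.23 to 1.16 for S100a9, −0.51 to −0.06 for S100a8, −0.15 to 0.28 for Lyz1, −0.11 to −0.0012 for Lyz2 and −0.25 to 0.42 for Chil3. Fits without a library have fewer samples. The low counts of Ptx3, S100a8, S100a9 and Chil3, and for S100a9 the spread between libraries, limit what can be seen of them.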
